A study of Homo sapiens with 19 samples.

Results

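The genes described here are those of the proteasome, taken as every protein-coding gene whose symbol is PSMA, PSMB, PSMC, PSMD or PSME followed by a number. The rule found 43 genes among the 20162 protein-coding genes of the annotation. For each gene, ERRα ChIP-seq peaks were sought whose centre lay within 20 kb, and within 1 kb, of any annotated transcription start of the gene on hg19 (GRCh37). The rule used gene symbols only, so the peaks near these genes did not decide which genes were taken.

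The proteasome is the protease complex that degrades ubiquitin-tagged proteins in the cytoplasm and nucleus. Its 20S core is a stack of rings, in which the alpha subunits (PSMA genes) form the outer gates and the beta subunits (PSMB genes) carry the proteolytic sites. The regulatory particle that caps the core has a base, with a ring of ATPases (PSMC genes) that unfold substrates, and a lid, with the deubiquitinase that removes ubiquitin (PSMD genes). The PSME genes encode alternative activators of the core. ERRα is an orphan nuclear receptor best known for its control of mitochondrial energy metabolism, and it binds the ERR response element (ERRE). NFE2L1, a transcription factor that acts through antioxidant-type elements, is the best known activator of proteasome genes when proteasome activity falls short.

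The series holds 19 samples, 13 ERRα ChIP libraries and 6 input libraries, from which the authors made 8 peak lists. SKBr3 and BT-474 are established ERBB2-amplified breast cancer cell lines. Both were serum-starved for 24 h and then given PBS (vehicle), 100 μM EGF or 100 μM HRG (heregulin) for 90 min. Untreated parental pSKBr3 cells and LRSKBr3 cells, a lapatinib-resistant line made from them and kept in 2 μM lapatinib, give the other 2 lists. Lapatinib inhibits the EGFR and HER2 kinases. Each list from an SKBr3-type line pools 2 ChIP libraries, and each BT-474 list rests on 1 ChIP library, with the vehicle input shared by the BT-474 lists.

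With 1 list per condition there is no spread between replicates, so no difference between lists was tested and no P value is given. Between pSKBr3 and LRSKBr3 the line and the drug differ together and cannot be told apart. The number of reads behind each list is unknown, and the lists held from 22539 (pSKBr3) to 41271 (BT-474 HRG) peaks. Copy number differs along the genomes of these lines, and its part in the peak calls was not tested. Peak strength is given as the percentile of the peak's score among all peaks of its own list, so that 50 marks a peak of middle rank. A longer list holds more weak peaks and so lifts the percentile of any given peak, and percentiles of different lists are values side by side rather than changes. Every list ends at the same minimum score of 50, and a gene without a peak may hold a signal under that minimum.

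The ERRE word TCAAGGTCA was absent from the 201 bp around the strongest promoter peak of every proteasome gene in all 8 lists, but was found in other parts of peaks within 20 kb of some of these genes. The word was rare at promoter peaks in general, with 1.90% to 5.10% of all genes with a promoter peak holding it, depending on the list. With 6 to 37 proteasome promoter peaks per list, its absence is near that background. Within 250 bp of the centre the word was found at 1 of these strongest peaks, that of PSMD1 in BT-474 EGF. The 4 sites below are shown because they are the ERRE words that recurred in at least 3 lists. They are written 5′ to 3′ from the hg19 sequence, on the strand that reads TCAAGGTCA, and the capitals mark that word.
PSMD14, chr2:162163063-162163123, plus strand, intergenic: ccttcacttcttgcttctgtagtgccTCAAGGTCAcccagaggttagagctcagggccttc
PSMC3, chr11:47430676-47430736, plus strand, in an intron of SLC39A13: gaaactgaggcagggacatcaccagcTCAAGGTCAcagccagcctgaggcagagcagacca
PSMB7, chr9:127182583-127182643, plus strand, intergenic: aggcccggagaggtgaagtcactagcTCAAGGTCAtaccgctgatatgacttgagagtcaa
PSMA7, chr20:60719972-60720032, minus strand, in an intron of SS18L1: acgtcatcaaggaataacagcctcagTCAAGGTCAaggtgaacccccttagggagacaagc

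The PSMD14 site was the ERRE called in every list. PSMD14 encodes the deubiquitinase of the lid, and the word lay 1843 bp upstream of its nearest start. Peaks over the word had percentiles of 74.9 on vehicle, 55.5 on EGF and 50.2 on HRG in SKBr3, 79.9, 75.8 and 71.5 in the matching BT-474 lists, 34.8 in pSKBr3 and 81.1 in LRSKBr3. The word was within 100 bp of the peak centre in 7 of the 8 lists. The BT-474 vehicle list differed, with a single peak (chr2:162161876-162166377) that spanned both the ERRE and the start of the gene and had its centre at -810 bp from the start. In BT-474 cells on EGF and HRG, the ERRE peak was called and no peak was centred within 1 kb of a start. The loss of the PSMD14 promoter call on either growth factor therefore rests on the extent of that vehicle peak, while a peak over the ERRE was called in all 3 BT-474 lists.

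PSMB7 encodes a catalytic subunit of the beta ring. Its ERRE lay 4890 bp upstream and was inside a peak in the 5 lists from SKBr3-type lines and in none from BT-474. In SKBr3 cells the percentile of that peak was 44.3 (vehicle), 51.5 (EGF) and 74.9 (HRG), and it stood at 52.2 in pSKBr3 and 75.9 in LRSKBr3. A separate peak at the 5′ end of PSMB7 was called in all 8 lists.

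**Figure D1:**
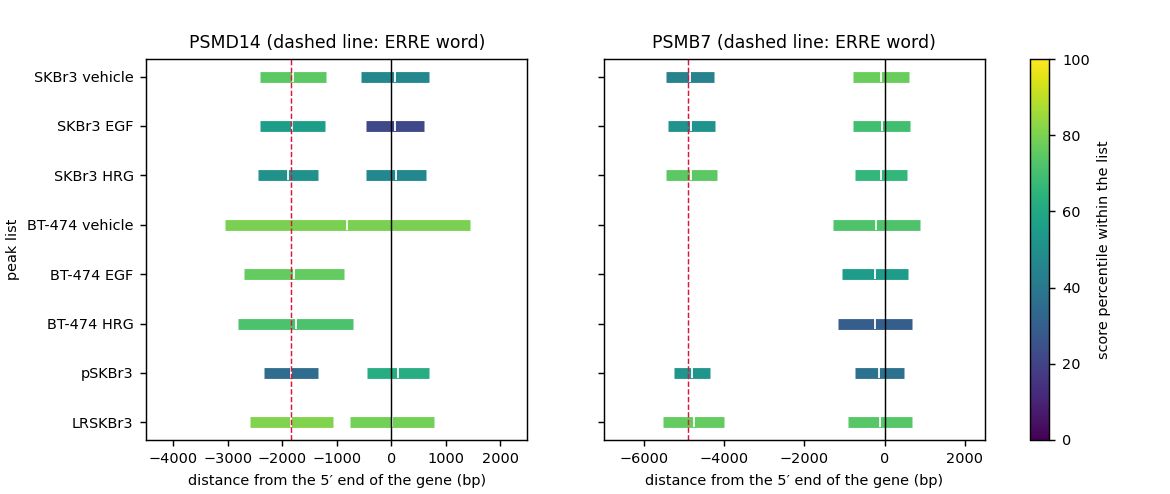
Peaks around the 5′ ends of PSMD14 and PSMB7 in each list (bars, coloured by score percentile, with a white tick at the centre) against the distance from the 5′ end in bp. The dashed line marks the ERRE word, 1843 bp upstream of PSMD14, where all 8 lists have a peak, and 4890 bp upstream of PSMB7, where the 5 SKBr3-type lists do. The single wide bar at PSMD14 is the BT-474 vehicle peak.

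PSMC3, an ATPase of the base, had the strongest peaks with an ERRE in the SKBr3-type lists. The word lay 17043 bp downstream of its nearest start, past the end of the gene. In SKBr3 cells these peaks had percentiles of 96.6, 97.1 and 98.6 on vehicle, EGF and HRG, and they reached 96.1 in pSKBr3 and 98.7 in LRSKBr3. BT-474 cells had a weaker peak there, at 22.7 on vehicle and 65.2 on HRG, and none on EGF. The promoter of PSMC3 itself was called in the SKBr3 HRG, pSKBr3 and LRSKBr3 lists, at 53.6, 51.7 and 72.4. PSMA7, a subunit of the alpha ring, had an ERRE 1506 bp upstream in peaks of the SKBr3 vehicle, pSKBr3 and LRSKBr3 lists, at 36.4, 37.6 and 55.3. In all, 7 of the 43 genes had an ERRE word in a peak within 20 kb in at least 1 list (16.3%, against 27.0% of all genes), and 4 had one in 3 or more lists (9.30% against 17.5%), so that these sites were fewer than among genes at large. A further 4 ERRE words occurred in peaks of 1 or 2 lists, near PSMA1, PSMA7, PSMD1 and PSMD2. Looking for ERRE words in the whole of every peak within 20 kb was chosen after the promoter peaks had shown none.

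Within 20 kb of a start, proteasome genes had peaks at rates close to or above those of protein-coding genes at large. In SKBr3 cells, 28 of the 43 genes had a peak on vehicle (65.1%, against 54.1% of all protein-coding genes), 25 on EGF (58.1% against 56.3%) and 33 on HRG (76.7% against 66.4%). In BT-474 cells the numbers were 24 on vehicle (55.8% against 53.0%), 21 on EGF (48.8% against 42.3%) and 23 on HRG (53.5% against 55.3%). The pSKBr3 list reached 34 genes (79.1% against 57.1%) and the LRSKBr3 list 38 genes (88.4% against 69.9%). Of all lists, only BT-474 HRG placed the proteasome share below that of all genes. The peak counts contain peaks that neighbouring members share, namely PSMB8 with PSMB9, PSME1 with PSME2 and PSMB5 with PSMB11, so the 95 gene-peak pairs of the LRSKBr3 list rest on 87 peaks.

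At promoters, within 1 kb of a start, the gap to the background was wider than within 20 kb in the 5 SKBr3-type lists and in BT-474 vehicle. In SKBr3 cells, 19 genes had such a peak on vehicle (44.2%, against 23.3% of all protein-coding genes), 16 on EGF (37.2% against 22.3%) and 28 on HRG (65.1% against 35.7%). In BT-474 cells, 15 genes had one on vehicle (34.9% against 19.4%), 6 on EGF (14.0% against 11.4%) and 8 on HRG (18.6% against 16.8%). The pSKBr3 list held 26 (60.5% against 31.4%) and the LRSKBr3 list 37 (86.0% against 41.7%). Proteasome genes were thus near the background share in both growth factor-treated BT-474 lists, and 37 of 43 in LRSKBr3. With all lists cut to the 22539 strongest peaks each, LRSKBr3 held 23 promoter peaks (53.5% against 29.5% of genes) and pSKBr3 26 (60.5% against 31.4%), and the order of these lists turned. At that size BT-474 EGF and BT-474 HRG held 4 each (9.30%, against 10.3% and 10.5% of genes), below the background. SKBr3 HRG still held 24 (55.8% against 25.7%) and SKBr3 vehicle 14 (32.6% against 18.5%) at that size.

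**Figure D2:**
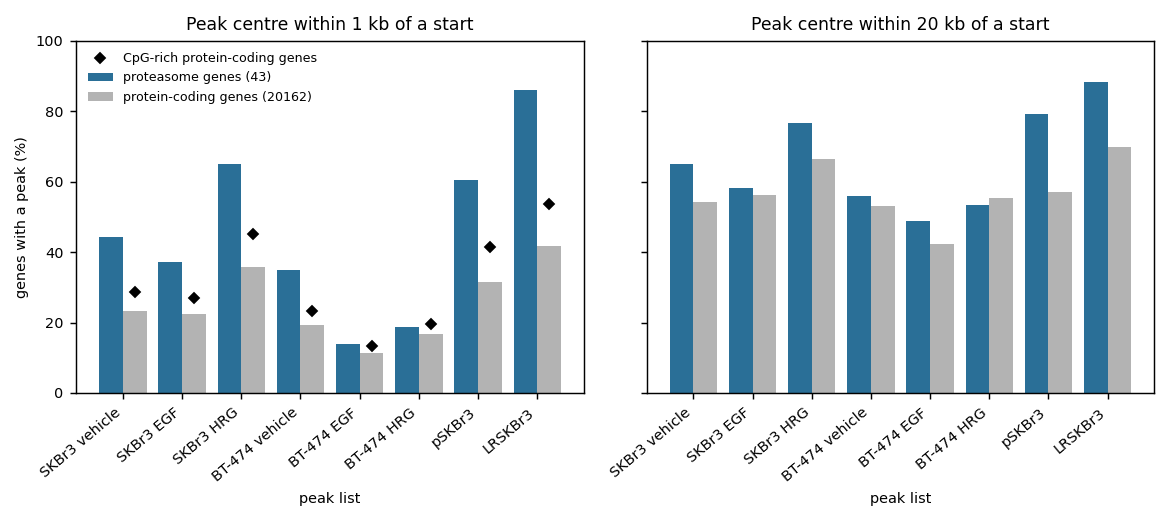
Percent of genes with a peak centre within 1 kb (left) and 20 kb (right) of a start in each list, for the 43 proteasome genes and the 20162 protein-coding genes, with CpG-rich protein-coding genes as diamonds. Within 1 kb the proteasome share ranges from 14.0% in BT-474 EGF to 86.0% in LRSKBr3.

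CpG-rich windows around the 5′ end were found for 35 proteasome genes (81.4%) and for 57.5% of all protein-coding genes. Among CpG-rich genes the share with a promoter peak was 28.8%, 27.0% and 45.1% for SKBr3 on vehicle, EGF and HRG, 23.4%, 13.3% and 19.7% for BT-474, 41.4% in pSKBr3 and 53.6% in LRSKBr3. Of the 35 CpG-rich proteasome genes, 42.9%, 37.1% and 68.6% had one in SKBr3, 34.3% and 14.3% in BT-474 on vehicle and EGF, 7 of the 35 in BT-474 HRG, 60.0% in pSKBr3 and 88.6% in LRSKBr3. The CpG-rich proteasome share thus stood near the CpG-rich background in BT-474 on EGF and HRG and above it in the other 6 lists. Proteasome genes also had more annotated starts (median 8, against 5 for all genes), and 15 of them (34.9%, against 23.4% of genes) had a start of another protein-coding gene within 1 kb. The CpG background was chosen after the data had been seen, and the part of these features in the counts was not tested.

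The promoter peaks of proteasome genes were mostly of middle rank. The median percentile of the strongest promoter peak was 46.3, 46.9 and 55.6 in SKBr3 on vehicle, EGF and HRG, where that of all genes with a promoter peak was 62.5, 57.4 and 60.3. It was 42.7, 28.1 and 52.4 in the BT-474 lists, against 55.4, 61.9 and 58.1, and 62.2 in pSKBr3 against 64.3. Only in LRSKBr3 did the proteasome median, at 68.7, stand above that of all genes, at 64.0.

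Nuclear genes of the mitochondrial respiratory chain and ribosome were set beside the proteasome genes for peak strength. The 37 genes of complex I (NDUFA, NDUFB, NDUFC, NDUFS and NDUFV symbols) had promoter peaks in 62.2% (BT-474 EGF) to 94.6% (pSKBr3 and LRSKBr3) of members, with medians from 75.5 to 95.5. The 77 mitochondrial ribosomal protein genes ranged from 31.2% to 89.6% of members, with medians from 53.0 to 85.5. Their median in BT-474 HRG, 53.0, was near the proteasome median of 52.4 there. In LRSKBr3 the shares were 86.0% for the proteasome, 94.6% for complex I and 89.6% for the mitoribosome, and the medians were 68.7, 95.5 and 85.5. None of these differences was tested.

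By breadth, 38 proteasome genes (88.4%, against 51.8% of all genes) had a promoter peak in at least 1 list, and the median gene had one in 3 lists against 1. In all 8 lists, 3 genes (PSMA3, PSMB7 and PSMD7) had one, 6.98% of members against 6.55% of all genes, a share near the background. For 4 genes (PSMA8, PSMD3, PSMD10 and PSMD11) there was no peak within 20 kb in any list, 9.30% against 15.3%.

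**Figure D3:**
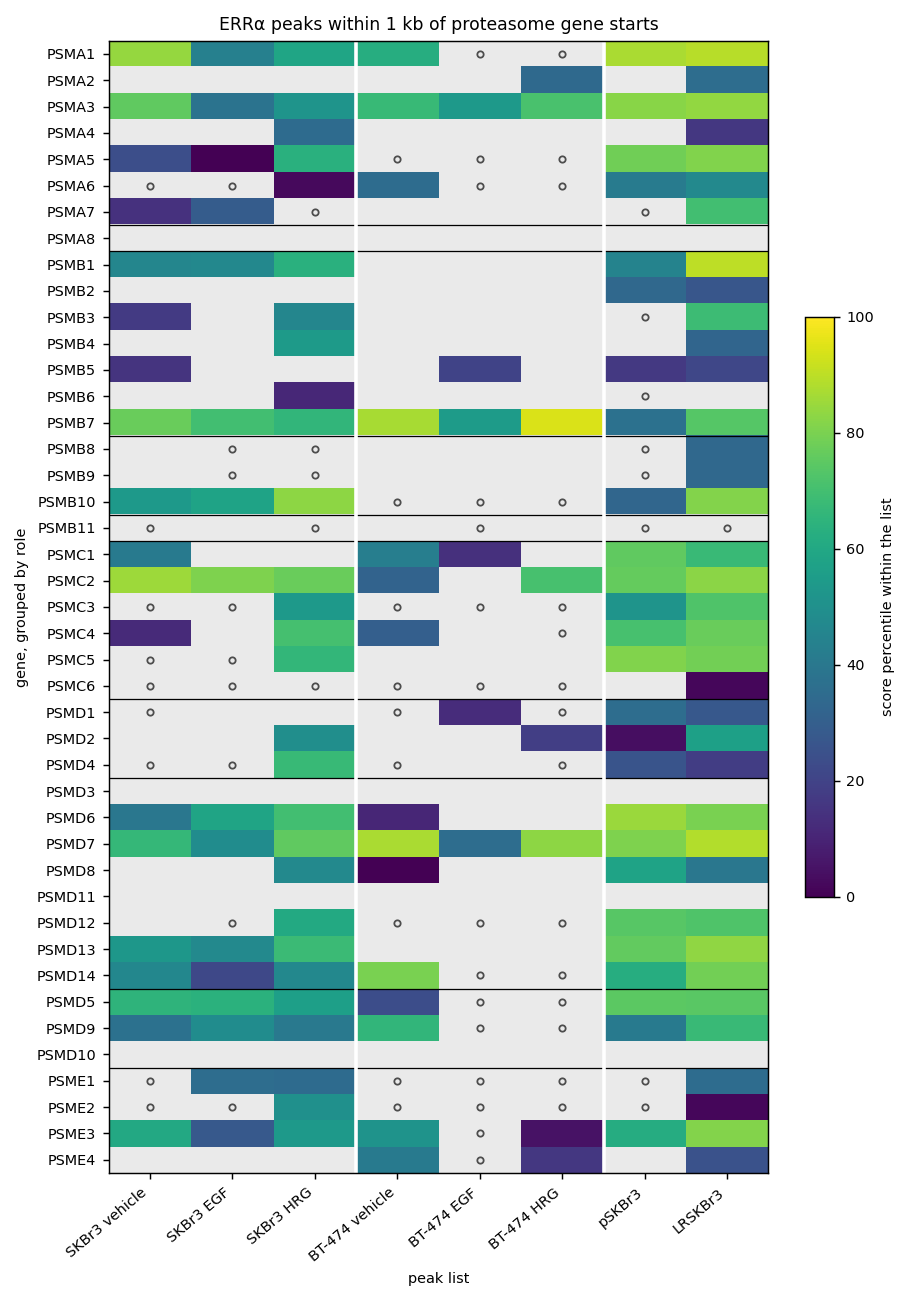
Score percentile, within its own list, of the strongest peak within 1 kb of each proteasome gene (rows, grouped by role) in each of the 8 lists (columns). Grey marks no promoter peak, and a circle a peak within 20 kb only. Filled rows across all lists are PSMA3, PSMB7 and PSMD7, and the LRSKBr3 column is filled for 37 genes.

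The alpha ring gates the entry of the core. Of its 7 constitutive genes, 4, 4 and 5 had promoter peaks in SKBr3 on vehicle, EGF and HRG, 3, 1 and 2 in BT-474, 4 in pSKBr3 and all 7 in LRSKBr3. PSMA3 was called throughout, at percentiles of 75.7, 38.1 and 51.8 in SKBr3 on vehicle, EGF and HRG, 67.4, 54.3 and 71.1 in BT-474, 82.3 in pSKBr3 and 83.8 in LRSKBr3. Its lowest percentile was thus on EGF in SKBr3 and its highest in the pSKBr3 and LRSKBr3 lists, also within lists of equal size (10.5, 82.3 and 71.4). PSMA1 reached 84.3, 43.5 and 59.0 in SKBr3, 62.5 in BT-474 on vehicle, 87.5 in pSKBr3 and 89.3 in LRSKBr3, with no promoter peak in BT-474 on EGF or HRG. These PSMA1 peaks lay at its canonical start, 123249 bp downstream of the 5′ end of the annotated gene. PSMA5 was weak in SKBr3 on vehicle (24.2) and EGF (0.345, next to the calling threshold) and stronger on HRG (63.6), in pSKBr3 (78.5) and in LRSKBr3 (81.1), and it had no promoter peak in BT-474. PSMA2 and PSMA4 were each called in 2 lists. The PSMA2 peaks were in BT-474 HRG (33.9997) and LRSKBr3 (35.6), and those of PSMA4 in SKBr3 HRG (34.8) and LRSKBr3 (16.0). The start of PSMA2 lies 191 bp from that of MRPL32, a mitoribosomal gene.

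PSMA6 shows how distance decides the picture. Its promoter peak was called in SKBr3 HRG (2.47), BT-474 vehicle (35.4), pSKBr3 (41.7) and LRSKBr3 (47.2). These peaks lay near its canonical start, 13749 bp downstream of the 5′ end of the annotated gene. The BT-474 vehicle centre was 860 bp from its nearest start. In contrast, a peak 19216 to 19532 bp downstream of a PSMA6 start was called in 7 lists at percentiles from 98.3 to 98.9. In SKBr3 HRG no such peak centre fell within 20 kb. PSMA7 had promoter peaks in SKBr3 on vehicle (14.4) and EGF (29.1) and in LRSKBr3 (69.7), with centres 353 to 487 bp downstream of the nearest start. That start lies inside the gene, and none of these centres was within 1 kb of the 5′ end.

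The constitutive beta ring holds the active sites PSMB5, PSMB6 and PSMB7 (chymotrypsin-like, caspase-like and trypsin-like) and the structural subunits PSMB1 to PSMB4. Promoter peaks were called for 4, 2 and 5 of its 7 genes in SKBr3 on vehicle, EGF and HRG, for 1, 2 and 1 in BT-474, for 4 in pSKBr3 and for 6 in LRSKBr3. PSMB7 was called in every list, at 77.1, 69.6 and 66.0 in SKBr3, 86.8, 54.8 and 94.2 in BT-474, 37.1 in pSKBr3 and 73.8 in LRSKBr3. Both highest values, in BT-474 on vehicle and HRG, belonged to a peak at a start inside the gene (chr9:127146088-127149672 on vehicle). At the 5′ end itself the BT-474 peaks had percentiles of 71.9 on vehicle, 54.8 on EGF and 29.5 on HRG. PSMB1 was called in the SKBr3-type lists alone, at 46.0, 46.7 and 63.3 on vehicle, EGF and HRG, 44.8 in pSKBr3 and 90.0 in LRSKBr3, the highest percentile of any proteasome promoter peak in that list. In pSKBr3 a second, stronger peak (74.4) had its centre at -1026 bp, just past the 1 kb limit, and the single LRSKBr3 peak spanned the places of both. The nearest start of another gene, that of TBP, lies 995 bp from a PSMB1 start. How much of these peaks belongs to TBP was not tested.

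The other beta subunits were weaker. PSMB5, the main target of clinical proteasome inhibitors, was called near the bottom of 4 lists, at 15.0 in SKBr3 vehicle, 20.3 in BT-474 EGF, 16.7 in pSKBr3 and 21.1 in LRSKBr3. PSMB6 appeared in SKBr3 HRG alone (11.2), and PSMB2 in pSKBr3 (33.9) and LRSKBr3 (26.7). PSMB4 was called in SKBr3 HRG (54.6) and LRSKBr3 (32.7). PSMB3 lies on chromosome 17, on the arm that carries the amplified ERBB2 gene, and its own copy number is not known here. Its promoter peak (percentiles of 17.02 on vehicle, 46.0 on HRG and 68.7 in LRSKBr3) was missing from SKBr3 EGF, pSKBr3 and every BT-474 list.

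In the immunoproteasome, PSMB8, PSMB9 and PSMB10 take the place of the constitutive active sites, as is best known for cells exposed to interferon-γ. PSMB8 and PSMB9 are a divergent pair on chromosome 6 with starts 89 bp apart, and they share a single promoter peak (chr6:32811440-32812982), which was called in LRSKBr3 at 33.6 and in no other list. Outside the promoter, peaks within 20 kb of the pair were called at 24.8 in SKBr3 EGF, at up to 65.9 in SKBr3 HRG, at 14.7 in pSKBr3 and at 34.9 and 28.5 in LRSKBr3. PSMB10 was called in all SKBr3-type lists, with promoter peaks at 53.8, 57.9 and 83.1 in SKBr3 on vehicle, EGF and HRG, 32.9 in pSKBr3 and 81.3 in LRSKBr3. In BT-474 no promoter peak of PSMB10 was called, but a peak 17753 to 18206 bp downstream was called in all 8 lists, at up to 98.6 in SKBr3 on EGF and HRG. The tissue-restricted subunits had no promoter peak in any list. PSMA8, the testis alpha subunit, had its nearest peak 28002 to 58641 bp away, depending on the list. PSMB11, the thymus beta subunit, had peaks no nearer than 7000 bp, and the nearest of these was the promoter peak of PSMB5.

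The ATPase ring unfolds substrates. Promoter peaks were called for 3, 1 and 4 of its 6 genes in SKBr3 on vehicle, EGF and HRG, for 3, 1 and 1 in BT-474, for 5 in pSKBr3 and for all 6 in LRSKBr3. PSMC2 was the most constant, at 85.4, 80.7 and 77.1 in SKBr3, 31.8 on vehicle and 70.7 on HRG in BT-474, 76.4 in pSKBr3 and 82.6 in LRSKBr3, with BT-474 EGF as the list without it. These peaks lay at an annotated start shared with DNAJC2, a ribosome-associated chaperone gene whose start is 84 bp away, and not at the canonical PSMC2 start, which is 19073 bp downstream of the annotated 5′ end. At the canonical PSMC2 start a separate, weaker peak was called in SKBr3 vehicle (26.1), pSKBr3 (42.6) and LRSKBr3 (50.8). PSMC4 was called at 11.97 on vehicle and 70.3 on HRG in SKBr3, at 30.3 on vehicle in BT-474, 71.1 in pSKBr3 and 77.1 in LRSKBr3. PSMC1 was called on vehicle in SKBr3 (41.4) and BT-474 (42.7), in BT-474 EGF (14.0), pSKBr3 (75.7) and LRSKBr3 (67.6). PSMC5 had peaks at 66.3 in SKBr3 HRG, 81.1 in pSKBr3 and 78.9 in LRSKBr3, and its start lies 21 bp from that of FTSJ3. PSMC6 was called at its start in LRSKBr3 alone (1.63), while an upstream peak, centred at -6306 to -6082 bp from the start, stood in all lists but pSKBr3, reaching 94.995 in BT-474 HRG.

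In the base, PSMD1 and PSMD2 are scaffold subunits and PSMD4 is a ubiquitin receptor. None of these 3 genes had a promoter peak in SKBr3 on vehicle or EGF, 2 had one on HRG, and all 3 had one in pSKBr3 and LRSKBr3. PSMD4 was called at 67.5 in SKBr3 HRG, 25.9 in pSKBr3 and 18.2 in LRSKBr3, and PSMD1 at its 5′ end in pSKBr3 (35.7) and LRSKBr3 (27.4). The PSMD1 call in BT-474 EGF (12.6) lay at a start inside the gene (chr2:232017217-232018524). PSMD2 was called at 49.5 in SKBr3 HRG, 18.4 in BT-474 HRG, 3.66 in pSKBr3 and 57.0 in LRSKBr3. All but the pSKBr3 value came from a start inside PSMD2 and not its 5′ end.

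The lid had promoter peaks at 4, 4 and 6 of 8 genes in SKBr3 on vehicle, EGF and HRG, at 4, 1 and 1 in BT-474, and at 6 in both pSKBr3 and LRSKBr3. PSMD7, which pairs with the deubiquitinase, had the highest median percentile (78.0) of the 3 genes called in every list. It was called at 66.6, 48.8 and 75.5 in SKBr3, 87.5, 35.9 and 83.0 in BT-474, 80.5 in pSKBr3 and 88.3 in LRSKBr3, so that EGF gave the lowest percentile in both lines. In BT-474 EGF a second, stronger peak (61.4) had its centre at 1348 bp, past the 1 kb limit, within the span of the single vehicle and HRG peaks. PSMD6 was called at 39.8, 58.4 and 69.8 in SKBr3, 10.7 in BT-474 vehicle, 84.8 in pSKBr3 and 79.9 in LRSKBr3. PSMD13, whose start lies 35 bp from that of the mitochondrial deacetylase gene SIRT3, was called in the SKBr3-type lists alone, at 52.8, 47.1 and 68.0 on vehicle, EGF and HRG, 75.9 in pSKBr3 and 83.3 in LRSKBr3. PSMD12 was called at 60.8 in SKBr3 HRG, 73.9 in pSKBr3 and 72.5 in LRSKBr3. PSMD8 was called at 46.9 in SKBr3 HRG, 0.327 in BT-474 vehicle, 58.1 in pSKBr3 and 39.7 in LRSKBr3. PSMD14 had promoter peaks at 46.3, 21.6 and 46.7 in SKBr3, 62.4 in pSKBr3 and 78.5 in LRSKBr3, beside the ERRE peak described above.

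The stretch just upstream of PSMD7 is shown because this gene had the highest median percentile of the 3 genes called in every list, although PSMA3 or PSMB7 stood above it in 5 of the 8 lists. It is the hg19 plus strand from 150 bases before the 5′ end to the last base before it, it is 69.3% G or C, and the capitals mark the bases from the peak centre in LRSKBr3 to that in pSKBr3.
PSMD7, chr16:74330562-74330711, plus strand, upstream of the gene: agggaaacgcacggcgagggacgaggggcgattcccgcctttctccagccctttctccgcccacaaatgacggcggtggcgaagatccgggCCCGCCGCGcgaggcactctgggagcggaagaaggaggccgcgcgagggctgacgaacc

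Of the chaperones that assemble the base, PSMD5 and PSMD9 had promoter peaks in 6 lists each and PSMD10 in none. PSMD5 stood at 64.9, 63.8 and 56.6 in SKBr3, 23.7 in BT-474 vehicle, 74.8 in pSKBr3 and 74.6 in LRSKBr3. PSMD9 stood at 37.3, 48.7 and 40.6 in SKBr3, 65.9 in BT-474 vehicle, 41.2 in pSKBr3 and 67.9 in LRSKBr3. The nearest peak to PSMD10 was 54891 to 353141 bp away.

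Among the activators, PSME3 (PA28γ) was called in all lists but BT-474 EGF. Its percentiles were 60.5, 27.9 and 53.6 in SKBr3, 51.5 on vehicle and 5.02 on HRG in BT-474, 62.0 in pSKBr3 and 81.3 in LRSKBr3, and its start lies 47 bp from that of the autophagy gene BECN1. The pSKBr3 value belongs to another PSME3 start inside the gene (chr17:40984759-40985889), and the peak at the 5′ end had a percentile of 38.4 in that list. PSME1 and PSME2 form the interferon-inducible PA28 complex and are neighbours on chromosome 14. PSME1 was called at 35.9 in SKBr3 EGF, 34.9 in SKBr3 HRG and 35.4 in LRSKBr3, and PSME2 at 50.4 in SKBr3 HRG and 1.77 in LRSKBr3. An upstream peak of PSME1, centred at -3338 to -3019 bp from its start, stood in the lists of SKBr3-type lines at percentiles from 51.2 to 87.3. Overlapping peaks were also called in BT-474, at 75.4 on vehicle, 48.2 on EGF and 49.8 on HRG. Their centres lay at -2069 to -1805 bp. PSME4 (PA200) was called at 41.4 in BT-474 vehicle, 16.2 in BT-474 HRG and 25.3 in LRSKBr3. Both BT-474 values belonged to a start inside the gene.

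PSMD3 and PSMD11, both of the lid and both on chromosome 17, were far from any peak. ERBB2 lies between PSMB3 and PSMD3, and the nearest peak to PSMD3 was 28271 bp away in LRSKBr3 and 625177 bp away in SKBr3 HRG. For PSMD11 the distances ranged from 93682 to 140720 bp.

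In SKBr3 cells, the vehicle and EGF lists shared promoter peaks at 15 proteasome genes. EGF added PSME1 (2.33% of members, against 4.09% of all genes) and dropped PSMB3, PSMB5, PSMC1 and PSMC4 (9.30% against 5.07%). These 4 genes stood at 17.02, 15.0, 41.4 and 11.97 on vehicle. For the 15 shared genes, the percentile was higher on EGF for 5, with a median difference of -5.69 percentile points (EGF minus vehicle), where the 3671 genes shared by these lists had -4.48.

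HRG added promoter peaks at 12 proteasome genes, 27.9% of members against 15.8% of all genes. They were PSMA4, PSMA6, PSMB4, PSMB6, PSMC3, PSMC5, PSMD2, PSMD4, PSMD8, PSMD12, PSME1 and PSME2, spread over the core, base, lid and activators. HRG dropped PSMA7, PSMB5 and PSMC1 (6.98% against 3.34%), and 16 genes were shared. Of the shared genes, 10 were higher on HRG, with a median difference of 6.13 percentile points against 3.98 for all shared genes. A percentile depends on the length of its list, and within lists of equal size the direction turned, to -11.3 for the 13 proteasome genes still shared, against 1.26 for all genes. The EGF and HRG comparisons share the vehicle list. With the lists at equal size the number of dropped genes was 1 (2.33% against 3.62% of all genes). Of the 12 genes added by HRG, 11 (all but PSMB6) also had a promoter peak in LRSKBr3 and 7 in pSKBr3. The matching shares among the 3179 genes added by HRG were 73.0% and 52.7%, and among the 12 proteasome genes 91.7% and 58.3%. The latter are near the shares of all 43 proteasome genes, 86.0% in LRSKBr3 and 60.5% in pSKBr3.

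In BT-474 cells both growth factor lists held fewer proteasome promoter peaks than vehicle, whereas in SKBr3 cells EGF held fewer and HRG more. EGF dropped the promoter peaks of 11 proteasome genes, 25.6% of members against 9.11% of all genes, and HRG those of 9 genes, 20.9% against 5.82%. PSMA1, PSMA6, PSMC4, PSMD5, PSMD6, PSMD8, PSMD9 and PSMD14 were absent on both growth factors, against the same vehicle list. EGF also dropped PSMC2, PSME3 and PSME4, and HRG also dropped PSMC1. EGF added PSMB5 and PSMD1 (4.65% against 1.08%), and HRG added PSMA2 and PSMD2 (4.65% against 3.21%). Counting the 5′ end of each gene only, or a distance of 500 bp, left 7 genes dropped on EGF (16.3%, against 6.65% and 7.22% of all genes). The genes called on both vehicle and EGF (PSMA3, PSMB7, PSMC1 and PSMD7) were each lower on EGF, with a median difference of -30.4 percentile points, where the 2078 genes shared by these lists had -6.46. For PSMB7 this sets different peaks side by side, since the peak at its inner start was called on EGF too (88.1) but with its centre at -1577 bp from that start, and at the 5′ end the step was from 71.9 to 54.8. The PSMD7 step, from 87.5 to 35.9, sets a wide vehicle peak beside the upstream one of a pair of EGF peaks, and the other EGF peak, centred 1348 bp from the start, had a percentile of 61.4. For the 6 genes called on vehicle and HRG the median difference was -0.377, with 3 of them higher, and -0.727 for all shared genes. Within lists of equal size the EGF difference was -34.9 for 3 genes (-3.05 for all genes), and that on HRG turned to 1.07 for 4 genes (-6.19 for all genes).

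LRSKBr3 held a promoter peak at every proteasome gene that had one in pSKBr3 (26 genes, none dropped, against 2.03% of all genes dropped). It added 11, 25.6% of members against 12.4% of all genes. These were PSMA2, PSMA4, PSMA7, PSMB3, PSMB4, PSMB8, PSMB9, PSMC6, PSME1, PSME2 and PSME4, with percentiles from 1.63 for PSMC6 to 69.7 for PSMA7. The PSMA7 peak lay at a start inside the gene. For the 26 shared genes the median difference was 4.97 percentile points (LRSKBr3 minus pSKBr3), with 17 higher, and that of the 5914 shared protein-coding genes was 5.22. Both the added genes and this difference depend on list length. Taken to 22539 peaks each, the LRSKBr3 list added 2 proteasome genes (4.65% against 4.17% of all genes) and dropped 5 (11.6% against 6.08%). The median difference then turned to -6.37 for the 21 genes still shared, with 6 higher, and to -4.30 for all genes.

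The centres of promoter peaks sat close to the starts. The median distance from the centre of the strongest promoter peak to the nearest start was 55 bp in pSKBr3, 96 bp in LRSKBr3 and 97.5 bp in SKBr3 HRG, where all genes had 144, 182 and 195 bp. In SKBr3 on vehicle and EGF it was 157 and 141.5 bp, against 219 and 242 bp. In BT-474 the medians were 423, 348 and 401 bp on vehicle, EGF and HRG, against 320, 379 and 403 bp. The BT-474 lists thus lacked the tight centring at starts, for proteasome genes and for genes at large. The centre is the midpoint of a peak, and the BT-474 peaks were wider. The median width of the proteasome promoter peaks was 2465, 1794.5 and 2713 bp in BT-474. In the SKBr3-type lists it was 1190.5 to 1667 bp, and the part of width in these distances was not tested.

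**Figure D4:**
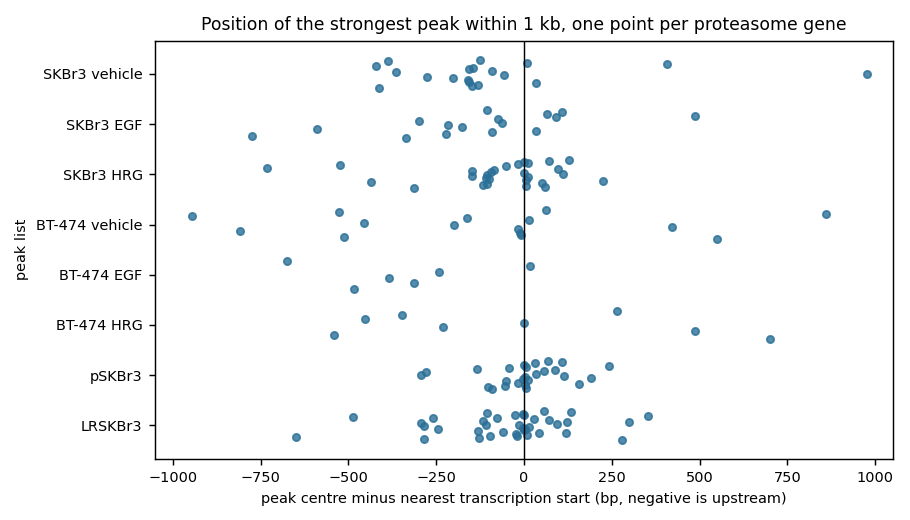
Distance in bp from the nearest transcription start to the centre of the strongest promoter peak, 1 point per proteasome gene and list, negative upstream. Points of pSKBr3, LRSKBr3 and SKBr3 HRG gather around 0, with median distances of 55, 96 and 97.5 bp, and those of BT-474 are spread.

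Within 500 bp of the 5′ ends of the 43 genes, with or without a peak, the ERRE word was not found (212 of the 20162 genes, 1.05%, had it). The ERRE word was also found for none of the complex I or mitoribosomal genes. Its 7-base core AAGGTCA was found for 5 genes, 11.6% against 12.4%, whereas complex I had it at 24.3% and the mitoribosome at 22.1%. Proteasome promoters stood out for other words. The AP-1 word (TGACTCA, or TGAGTCA on the other strand) was present for 13 genes, 30.2% against 10.8% of all genes and 6.67% of CpG-rich genes. The antioxidant-type word TGACNNNGC was present for 26 genes, 60.5% against 34.2%. The longer word TGACTCAGC, which holds the AP-1 word and the antioxidant-type word in overlap, was present for 6 genes (14.0%), against 1.17% of all genes and none of the complex I or mitoribosomal genes. All words were sought on both strands, and the searches around the 5′ ends and the longer word were chosen after results were seen.

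**Figure D5:**
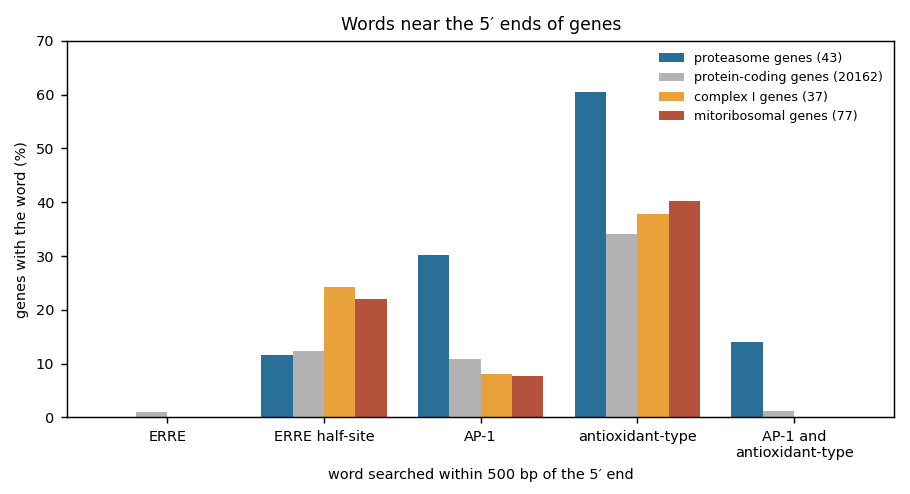
Percent of genes with each word within 500 bp of the 5′ end, for the 43 proteasome genes, all 20162 protein-coding genes, 37 complex I genes and 77 mitoribosomal genes. The bars of the proteasome genes are tallest for the AP-1 word (30.2%), the antioxidant-type word (60.5%) and their overlap (14.0%). The ERRE is absent from the proteasome, complex I and mitoribosomal genes alike.

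The 6 promoters with the longer word are shown with 10 bases to each side, because they are the sites at which the word of the AP-1 motif and the antioxidant-type word coincide. They are written from hg19, 5′ to 3′ on the strand that reads TGACTCAGC, with that word in capitals.
PSMA3, chr14:58711915-58711943, minus strand, in an exon of PSMA3 and an intron of ARMH4: ctgaagaaagTGACTCAGCaatccaaagc
PSMA5, chr1:109968711-109968739, plus strand, in an exon of PSMA5: gacccaggggTGACTCAGCggtaggacaa
PSMD1, chr2:231921804-231921832, minus strand, in an intron of PSMD1: tcaccggcccTGACTCAGCtaaaagccgg
PSMD2, chr3:184017220-184017248, minus strand, in an exon of PSMD2: ggagccgccgTGACTCAGCcccgcagcct
PSMD7, chr16:74330918-74330946, minus strand, in an intron of PSMD7: agcgtgcccgTGACTCAGCagcggctgcg
PSMD12, chr17:65362471-65362499, plus strand, in an intron of PSMD12: ctccgcgccgTGACTCAGCccctggcgcc

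All 6 words lay downstream of the 5′ end, by 364 bp in PSMA3, 341 bp in PSMA5, 255 bp in PSMD1, 244 bp in PSMD2, 216 bp in PSMD7 and 232 bp in PSMD12. Measured from canonical starts, 11 of the 13 proteasome genes with an AP-1 word (84.6%), the 6 genes above among them, had it 200 to 399 bp downstream, where 15.3% of all genes with the word had it in that stretch and 64.2% had it upstream. This stretch was chosen after the positions were seen. The 6 genes with the longer word had promoter peaks in 3, 3 and 5 cases in SKBr3 on vehicle, EGF and HRG, 2, 3 and 3 in BT-474, and all 6 in pSKBr3 and LRSKBr3. Of the 37 genes without it, 16, 13 and 23 had one in SKBr3, 13, 3 and 5 in BT-474, 20 in pSKBr3 and 31 in LRSKBr3. The word lay inside a promoter peak in all 8 lists for PSMA3 and PSMD7, in 5 for PSMA5, in 3 for PSMD12 and in 2 for PSMD1 and PSMD2. It was away from the centres of most of these peaks, the nearest of which was 199 bp away for PSMA3, 257 bp for PSMA5, 206 bp for PSMD1 and 218 bp for PSMD7. In PSMD12 and PSMD2 the nearest centres were 6 and 1 bp away. In the 201 bp around the strongest promoter peak, the AP-1 word was present at 0 to 3 proteasome genes per list, 0% to 12.5% of those with a promoter peak, against 2.06% to 5.89% of all genes with one. Within 250 bp of the centre these shares were 16.7% to 31.25%, against 5.49% to 12.5%.

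The 27 other genes of the pathway that were looked up, which are partner subunits, assembly factors, shuttles and regulators outside the symbol rule, had promoter peaks in 11, 8 and 18 cases in SKBr3 on vehicle, EGF and HRG, 9, 6 and 9 in BT-474, 18 in pSKBr3 and 21 in LRSKBr3. These are 40.7%, 29.6% and 66.7% of the 27 genes in SKBr3, 33.3%, 22.2% and 33.3% in BT-474, 66.7% in pSKBr3 and 77.8% in LRSKBr3, against 23.3%, 22.3% and 35.7%, 19.4%, 11.4% and 16.8%, 31.4% and 41.7% of all protein-coding genes. A promoter peak in all 8 lists was found for 5 of the 27 (6.55% of all genes had one), namely the proteasome inhibitor PSMF1 (median percentile 81.1), the ubiquitin ligase UBE3A (48.4), the oxidative stress factor NFE2L2 (59.4), NGLY1 (90.1), the glycanase that processes NFE2L1, and ZFAND5 (95.7). The median gene had one in 3 lists, as for the subunit genes. NFE2L1 itself was called in SKBr3 HRG (14.9), BT-474 vehicle (30.1) and LRSKBr3 (24.3). POMP, the maturation factor of the core, was called in all lists but BT-474 EGF, at percentiles from 16.9 to 61.3. No ERRE word lay within 500 bp of the 5′ end of any of the 27 genes.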

How the data were processed

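ERRα ChIP-seq was made from SKBr3, BT-474, pSKBr3 and LRSKBr3 cells. The authors aligned reads to hg19 and called peaks against input with MACS at P 1e-05, and the submitters' processing notes name BWA 0.5.9 and SAMtools 0.1.18. The deposited score of a peak was read as MACS's -10 log10 of the P value, because each list reaches down to 50 and its peaks are named for MACS. The lists of SKBr3 on vehicle, EGF and HRG also carry a comment line that names FindPeaks, so this reading, and the P value of 1e-10 below, is less certain for them. It depends on read depth, which is not given in the sources used here, so scores were turned into mid-rank percentiles within a list. The deposited files give the start and end of each peak, and its centre is the midpoint. The replicate ChIP libraries are pooled in the lists, so nothing was tested.

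Protein-coding genes and their transcription starts came from GENCODE v44 mapped to GRCh37, without the mitochondrial genes. A gene was called when a peak centre lay within 20 kb or 1 kb of any of its starts. The strongest peak within 1 kb stood for the gene. Gained and dropped refer to presence in the later list and the vehicle or parental list. Words were sought on both strands within 100 bp of peak centres and within 500 bp of 5′ ends. A window was CpG-rich with at least 50% G or C and an observed to expected CpG ratio of at least 0.6. Values in all lists were given for members whose calls differed between the lists of an experiment, members called in all 8, the tissue-restricted and immunoproteasome genes, and genes with an ERRE. The members and lists were chosen with earlier results of these data known. Alternatives were a P value of 1e-10, lists of equal size, 5′ ends only, any base of a peak, 10 kb and 500 bp, and word windows of 250 bp. The CpG-rich background, canonical starts, words around 5′ ends, the words TNAAGGTCA and TGACTCAGC, whole peaks within 20 kb, and percentiles within lists of equal size were chosen after seeing the data. The code was tested on simulated data. Python 3.11.15, numpy 2.4.6, scipy 1.17.1, pysam 0.24.0 and matplotlib 3.10.9 were used.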

Additional observations from a re-analysis of the deposited data

Results flagged for a closer look

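The number of proteasome genes with a promoter peak changed by 9 on HRG in SKBr3 cells and by -7 on HRG in BT-474 cells, which are opposite directions, and the difference was not tested. All protein-coding genes moved the same ways, from 4694 to 7199 genes with a promoter peak in SKBr3 and from 3914 to 3387 in BT-474. PSMA6 and PSMD8 gained a promoter peak on HRG in SKBr3 cells, at percentiles of 2.47 and 46.9, and dropped it on HRG in BT-474 cells, and these differences were not tested. The dropped BT-474 vehicle peaks stood at 35.4 for PSMA6 and 0.327 for PSMD8. With lists of equal size, PSMA6 had no promoter call in SKBr3 HRG and PSMD8 none in BT-474 vehicle, so neither pattern held. All PSMA6 calls lay at a start inside the gene. PSMB5 dropped its promoter peak on EGF in SKBr3 cells and gained it on EGF in BT-474 cells, at a percentile of 20.3, and this difference was not tested. The SKBr3 vehicle peak had a percentile of 15.0 and was absent with lists of equal size, so the drop did not hold there.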

How the results depend on the processing

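No paired analysis was possible because the replicate libraries are pooled in each deposited list, and for the same reason no library could be left out. Of 207 alternative values, 172 stayed within 1.5 times the count or within the interval of the reported value, 32 did not and 3 changed sign. The cause of the shifts was not tested. At a P value of 1e-10, promoter calls fell to 2 genes in BT-474 EGF (4.65%, against 7.89% of all genes) and 4 in BT-474 HRG (9.30% against 11.6%), both now below the background, 1 gene was called in all 8 lists (2.33% against 4.61% of all genes), HRG dropped 1 gene in SKBr3, and in BT-474 EGF and HRG gained 0 each. With lists of equal size, 15 genes were called within 20 kb (34.9% against 39.5%) and 4 within 1 kb (9.30% against 10.5%, now below the background) in BT-474 HRG, and 23 within 1 kb in LRSKBr3, which gained 2 genes and dropped 5 against pSKBr3. HRG then dropped 1 gene in SKBr3, and in BT-474 EGF gained 1 and HRG 0. With 5′ ends only, BT-474 HRG held 5 promoter calls (11.6% against 9.28% of all genes), HRG dropped 1 gene in SKBr3, EGF and HRG gained 1 each in BT-474, and EGF dropped 7 there. With canonical starts only, BT-474 HRG held 4 promoter calls (9.30% against 9.26%), and EGF and HRG gained 1 each. Within 500 bp, EGF gained 0 genes in SKBr3 and dropped 7 in BT-474. Counting any base of a peak gave 5 genes in all 8 lists (11.6% against 9.41%). For genes called in all 8 lists the median percentile was 75.7 in SKBr3 vehicle, 86.8 in BT-474 vehicle, 80.5 in pSKBr3 and 83.8 in LRSKBr3. Within 250 bp of the centre, the antioxidant-type word was present in 42.9% of the members' strongest promoter peaks in SKBr3 HRG (23.4% for all genes) and 46.2% in pSKBr3 (23.9%), and the AP-1 word in 26.9% in pSKBr3 (5.49%). Within 100 bp the antioxidant-type word was at 21.4% against 10.5% and 19.2% against 11.2%. With percentiles taken within lists of equal size, chosen after seeing the data, the median difference turned to -11.3 on HRG in SKBr3, 1.07 on HRG in BT-474 and -6.37 in LRSKBr3 against pSKBr3.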
